A study of Homo sapiens with 16 samples.

Results

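The genes described are the cytosolic ribosomal protein genes, which encode the proteins of the ribosome outside mitochondria. They were chosen by symbol, as the RefSeq protein-coding genes on chromosomes 1 to 22 and X named RPL or RPS followed directly by a digit, with the RPS6K kinases left out, and number 85 of 19974 genes. Of these, 73 encode single ribosomal proteins, 30 of the small subunit (RPS) and 43 of the large subunit (RPL). A further 8 are paralogs of such genes (RPL3L, RPL7L1, RPL10L, RPL22L1, RPL26L1, RPL36AL, RPL39L and RPS27L), and 3 are readthrough genes that share a start with RPS10, RPL17 or RPL36A. The remaining gene, RPS19BP1, encodes a protein that binds RPS19 and is not a ribosomal protein. Ribosomal proteins with other symbols, such as RPLP0, RPSA and FAU, are not taken in by the rule and serve below as a list for comparison.

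Open chromatin was mapped by ATAC-seq, in which the transposase Tn5 inserts adapters where DNA is accessible, on nuclei from brain organoids. All 16 libraries came from a single reporter line, which was made in the established human embryonic stem cell line H9 and carries the genotype label WT. In that line EGFP, joined through P2A, follows the coding sequence of a single SOX2 allele, and dTomato at AAVS1 is driven by the promoter of human SYN1. The progenitors were SOX2::EGFP+ cells and the neurons hSyn1::dtomato+ cells, each sorted on days 40, 60, 90 and 120 from telencephalic organoids rich in dorsal tissue, with 2 libraries per population and day. Each population is thus what a single reporter marks. Nothing in the labels ties the 2 libraries to separate organoid batches, and the spread on which the p-values rest may be technical.

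The authors' broad peaks, called per library, covered 36.9 Mb (progenitor day 120 replicate 2) to 104 Mb (neuron day 40 replicate 1). The number of reads is unknown. Of the markers of each sorted population, 6 of 8 progenitor genes had higher locus coverage in progenitors and 6 of 8 neuron genes higher locus coverage in neurons, while 0 of 5 dorsal telencephalon markers passed the test in either direction. DLX1 and DLX2, among 6 ventral interneuron markers, TTR, among 4 choroid plexus markers, and KDR, among 4 endothelial markers, were also higher in progenitors, and DCN, among 4 mesenchyme markers, was higher in neurons. Of 5 microglia markers P2RY12 and C1QA passed, 1 in each direction, and of 6 oligodendrocyte lineage markers 0 passed. By the same test 9.9% of all genes were higher in progenitors and 11.1% lower. The summed coverage of the ventral list was 23.8 to 48.8 kb in progenitors and 21.6 to 58.7 kb in neurons, and that of the choroid plexus list 2.78 to 8.75 kb and 1.40 to 6.34 kb. It was 4.704 to 12.1 kb and 4.301 to 9.64 kb for the endothelial list, 2.58 to 10.3 kb and 3.33 to 14.8 kb for mesenchyme, 2.94 to 11.4 kb and 4.402 to 14.1 kb for microglia, and 14.1 to 32.8 kb and 16.6 to 44.4 kb for the oligodendrocyte lineage. PECAM1, AIF1 and the progenitor marker SLC1A3, which was among the 6 higher in progenitors, had no gene end peak in any library. The part of such cells in the results below was not tested.

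Ribosomal protein genes are among the most strongly transcribed genes of growing cells, and their products are needed in equal amounts. Most of their mRNAs begin with a C followed by a run of pyrimidines, the terminal oligopyrimidine (TOP) motif, through which LARP1 and the mTOR pathway set how much of the mRNA is translated. Neural progenitors divide and neurons do not, but both need ribosomes, neurons also in their processes. The genes themselves are short and often host small nucleolar RNAs in their introns, and the genome holds many processed pseudogenes of them.

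Promoter sequences of RefSeq (GRCh38.p14, the coordinates of hg38) gave a start for 66 of the 85 genes. The 8 sequences that follow run from 60 bases before the annotated start to the 15 bases from it and belong to genes whose peaks are described below. Capitals mark the pyrimidine run at the start. RPS28, RPL28, RPS21 and RPL22L1 passed a test between the populations, RPL10 had the steadiest and RPL13A the narrowest peak over its start, and RPS29 and RPL10L lack such a run. Of several listed starts of RPL10, one with a run is shown.
RPS28, chr19:8321436-8321510, plus strand: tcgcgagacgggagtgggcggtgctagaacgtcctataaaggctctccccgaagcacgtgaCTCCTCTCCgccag
RPL28, chr19:55385872-55385946, plus strand: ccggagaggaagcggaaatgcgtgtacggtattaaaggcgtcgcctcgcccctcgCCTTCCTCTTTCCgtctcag
RPS21, chr20:62387043-62387117, plus strand: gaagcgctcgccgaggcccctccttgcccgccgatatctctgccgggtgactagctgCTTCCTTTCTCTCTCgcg
RPL22L1, chr3:170870181-170870255, minus strand: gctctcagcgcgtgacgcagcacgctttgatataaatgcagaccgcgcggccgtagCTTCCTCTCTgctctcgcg
RPL10, chrX:154398317-154398391, plus strand: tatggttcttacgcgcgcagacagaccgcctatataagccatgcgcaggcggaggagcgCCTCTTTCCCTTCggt
RPL13A, chr19:49487548-49487622, plus strand: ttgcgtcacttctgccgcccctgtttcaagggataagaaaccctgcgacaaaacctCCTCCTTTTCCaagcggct
RPS29, chr14:49598696-49598770, minus strand: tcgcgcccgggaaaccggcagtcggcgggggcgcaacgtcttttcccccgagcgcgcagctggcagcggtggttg
RPL10L, chr14:46651767-46651841, minus strand: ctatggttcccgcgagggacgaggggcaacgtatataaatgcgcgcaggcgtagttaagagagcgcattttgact

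A TOP-form start, a C within 5 bases of the annotated base followed by at least 4 further C or T, was found in 52 of 66 members (78.8%) and in 28.0% of 15812 genes with a promoter entry. The same form at a point 100 bases before the start occurred in 21.2% of members and 26.7% of all genes. The run was 5 to 22 bases long, with a median of 10.5. Members whose listed starts lack it include RPL15, RPL27, RPL6, RPL9, RPS15, RPS26, RPS29, RPS4X and the paralogs RPL7L1, RPL10L, RPL26L1 and RPS27L.

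Short motifs were searched on both strands of the 300 bases around the start, of which 250 lie before it and 50 from it on. CTCGCGA, the core bound by ZBTB33, was in 14 of 66 members (21.2%), among them RPS28, RPL10, RPS6 and RPS19, against 4.01% of all genes. CCGGAAG, a core of the ETS family, was in 34.8% of members and 16.5% of all genes, and ATGGCGG, a core of YY1, in 21.2% and 9.15%. Mitochondrial ribosomal protein genes held the latter pair more often still (43.5% and 34.8% of 69), but a TOP-form start in only 23.2% and CTCGCGA in 4.35%. GGGCGG was in 59.1% of members against 64.2%, CCAAT in 31.8% against 42.1%, and GCATGCG in 7.58% against 6.07%. TATAAA in the 50 bases before the start was in 5 members (7.58%, against 5.38%): RPS28, RPL22L1 and RPL10L on the strand of the gene, at -26, -30 and -27, and RPL3 and RPS3 on the other strand. These matches describe letters and are not measured sites.

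The genes are small, with a median length of 5127 bases against 24170.5 for all protein-coding genes. The window used for locus coverage, the gene and 20 kb on either side, therefore takes in much of the surroundings. It touched a median of 2 other protein-coding genes (1 for all genes), and a median of 42.3% of its covered bases lay within 1 kb of the member itself. In 12 windows another member lay nearby, as in the neighbours RPS2 and RPL3L or RPS29 and RPL36AL, so that such pairs share values. Small nucleolar RNAs lie inside 28 members, 60 in all, with 4 in RPL13A (SNORD32A, SNORD33, SNORD34 and SNORD35A). The start lay within 1 kb of an end of another protein-coding gene in 23 members (27.1%, the readthrough pairs included), against 18.8% of all genes.

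Nearly all ribosomal protein genes were open at their ends in every library, counted as a peak within 1 kb of either end. In each of the 16 libraries 83 of 85 members (97.6%) had such a peak, while the share of all genes ran from 62.9% to 75.3%. Over all libraries 82 members (96.5%) had it in 16 of 16, against 58.6% of all genes, and 1 member had it in none, against 15.6%. The Fisher test between populations, open to genes with such a peak in 2 to 14 libraries, called 16 of 3360 genes (0.476%, with 0.387% more often in progenitors, 0.0893% in neurons and 331 genes at an unadjusted p under 0.05) and could test 0 members, since none fell in that range. With at least 50% of the window covered, 44 members had the peak in 2 to 14 libraries and could be tested, and 0 members and 0% of all genes passed. Among them were RPS28 (4 progenitor and 8 neuron libraries), RPL38 (0 and 3), RPS19 (3 and 0) and RPS21 (1 and 4).

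The exceptions were all paralogs. RPL10L (chr14:46651010-46651781), an intronless copy of RPL10 known from testis, had no peak within 1 kb of its ends in any library, and its locus held 0.299 ± 0.305 kb of peaks (SD, n = 16). RPL3L (chr16:1943974-1954689), the paralog of RPL3 known from striated muscle, had a gene end peak in 15 libraries and lacked it in progenitor day 120 replicate 2. The RPL3L end at 1943974 lies 775 bases from an end of MSRB1, so a peak counted there can be that of the neighbour. The part of MSRB1 was not tested. RPL26L1 (chr5:172954094-172969771), the close copy of RPL26, had a gene end peak in that library alone. Its 2 listed starts, at 172958729 and 172958880, lie inside the gene as the table bounds it, and 7 libraries had a peak over a start.

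The paralogs RPL7L1, RPL22L1, RPL36AL, RPL39L and RPS27L carried a peak over the start in all 16 libraries. RPL39L, the paralog of RPL39 abundant in testis and some tumours, had a peak of 974 ± 147 bases (SD, n = 16), and its whole locus held 1.08 ± 0.232 kb. RPL22L1, the paralog of RPL22, had 1101 ± 209 bases and RPL36AL, a relative of RPL36A, 1212 ± 169 bases. RPL7L1, a protein of the assembling large subunit, had 1148 ± 161 bases, and RPS27L, a p53 target, had 1880 ± 415 bases. The starts of these 5 paralogs were thus open in every library of both populations, while RPL10L was the only member with no peak near its ends in any.

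**Figure D1:**
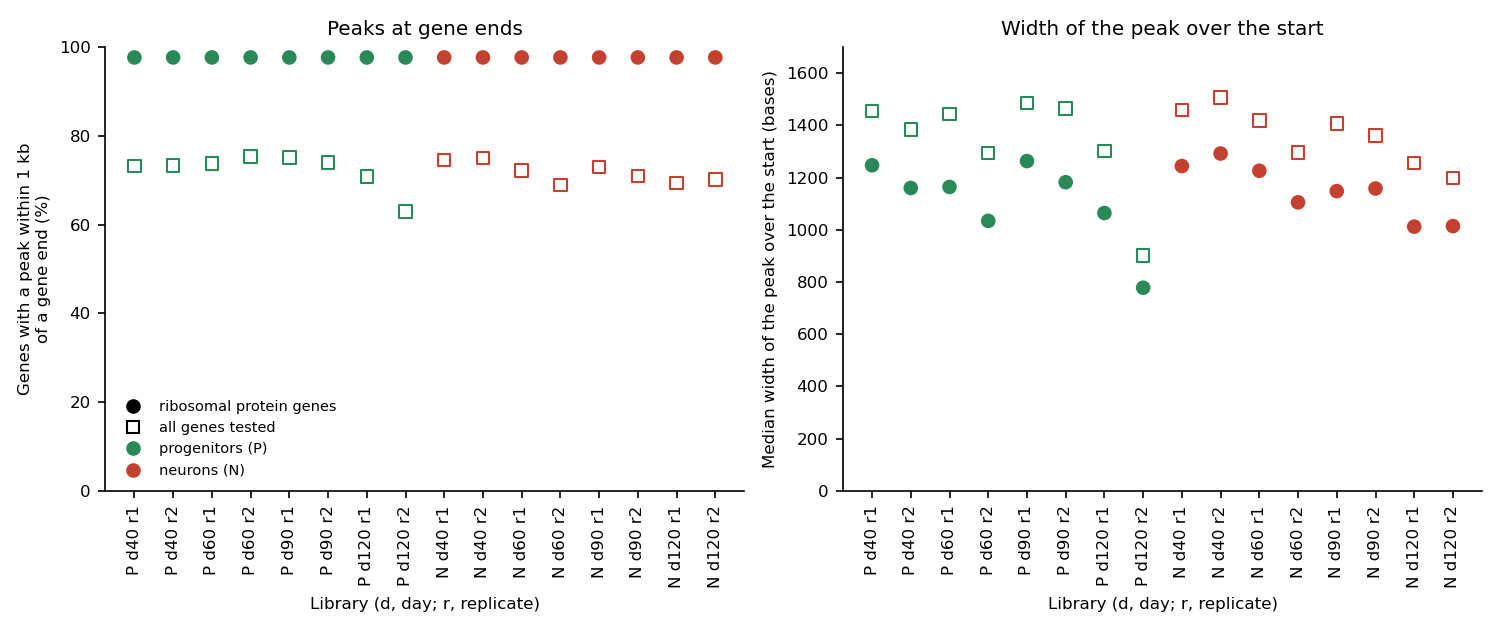
Left, share of genes (%) with a peak within 1 kb of a gene end, and right, median width in bases of the peak over the start, for each of 16 libraries (filled circles, ribosomal protein genes; open squares, all genes; green, progenitors; red, neurons). Members stay at 97.6% in each library while all genes vary from 62.9% to 75.3%, and the members' median width lies below that of all genes in each library.

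A peak covered the start itself in all 16 libraries for 79 members (92.9%) and for 9578 of all genes (48.0%). The width of that peak, as one stretch of covered bases, had a median of 778 (progenitor day 120 replicate 2) to 1292 bases (neuron day 40 replicate 2) over these members. Over the 9578 genes the median was 901 to 1506 bases, so the members' median was 0.799 to 0.865 times that of all genes in each library. The authors' fold enrichment was ranked within each library, and the strongest peak within 1 kb of a listed start was taken. Over members with such a peak the median percentile was 81.8 to 94.8, against 64.5 to 80.0 over all genes with one. These sets are not limited to the 79 and 9578 genes of the width, so the measures are not matched. In every library the members' median width was below, and their median rank above, that of the genes in the same measure. No test was made of these differences, since members are not replicates.

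Among the members, RPL13A had the narrowest mean peak, 616 ± 97.5 bases (SD, n = 16), followed by RPL14 with 634 ± 109 and RPS24 with 659 ± 49.1. RPL13A, a large subunit protein with a known part in silencing of inflammatory mRNAs, nevertheless ranked at the 99.3 ± 0.51 percentile of fold enrichment in progenitors and at 96.8 ± 3.03 in neurons (SD, n = 8 each). RPL5, which binds MDM2 together with RPL11 and 5S RNA, ranked at 99.2 ± 0.51 and 98.1 ± 1.46, with 994 ± 124 bases. RPL14 was nearly as narrow but ranked lower, at a mean of 64.4 and 56.6. The widest mean among these 79 was that of RPL15, 1922 ± 416 bases, a gene with 3 listed starts. A narrow peak thus stood at either a high or a middling rank.

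RPL10 was the steadiest, with 1121 to 1246 bases over the 16 libraries, a ratio of 1.11. Across the 79 members the widest library was a median of 1.85 times the narrowest, and 55 members stayed under 2 times. RPL41, the shortest ribosomal protein, varied most, from 591 to 2700 bases. Its stretch was 2568 to 2700 bases in progenitor day 40 replicates 1 and 2, progenitor day 90 replicate 1 and, at 2641, neuron day 40 replicate 2, and at most 948 bases in the other 12, so the wide state was shared by both populations. In 64 of 79 members the narrowest peak was that of progenitor day 120 replicate 2, the library with the fewest covered bases. The median SD of the centred log2 width was 0.17 over members and 0.20 over all genes.

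**Figure D2:**
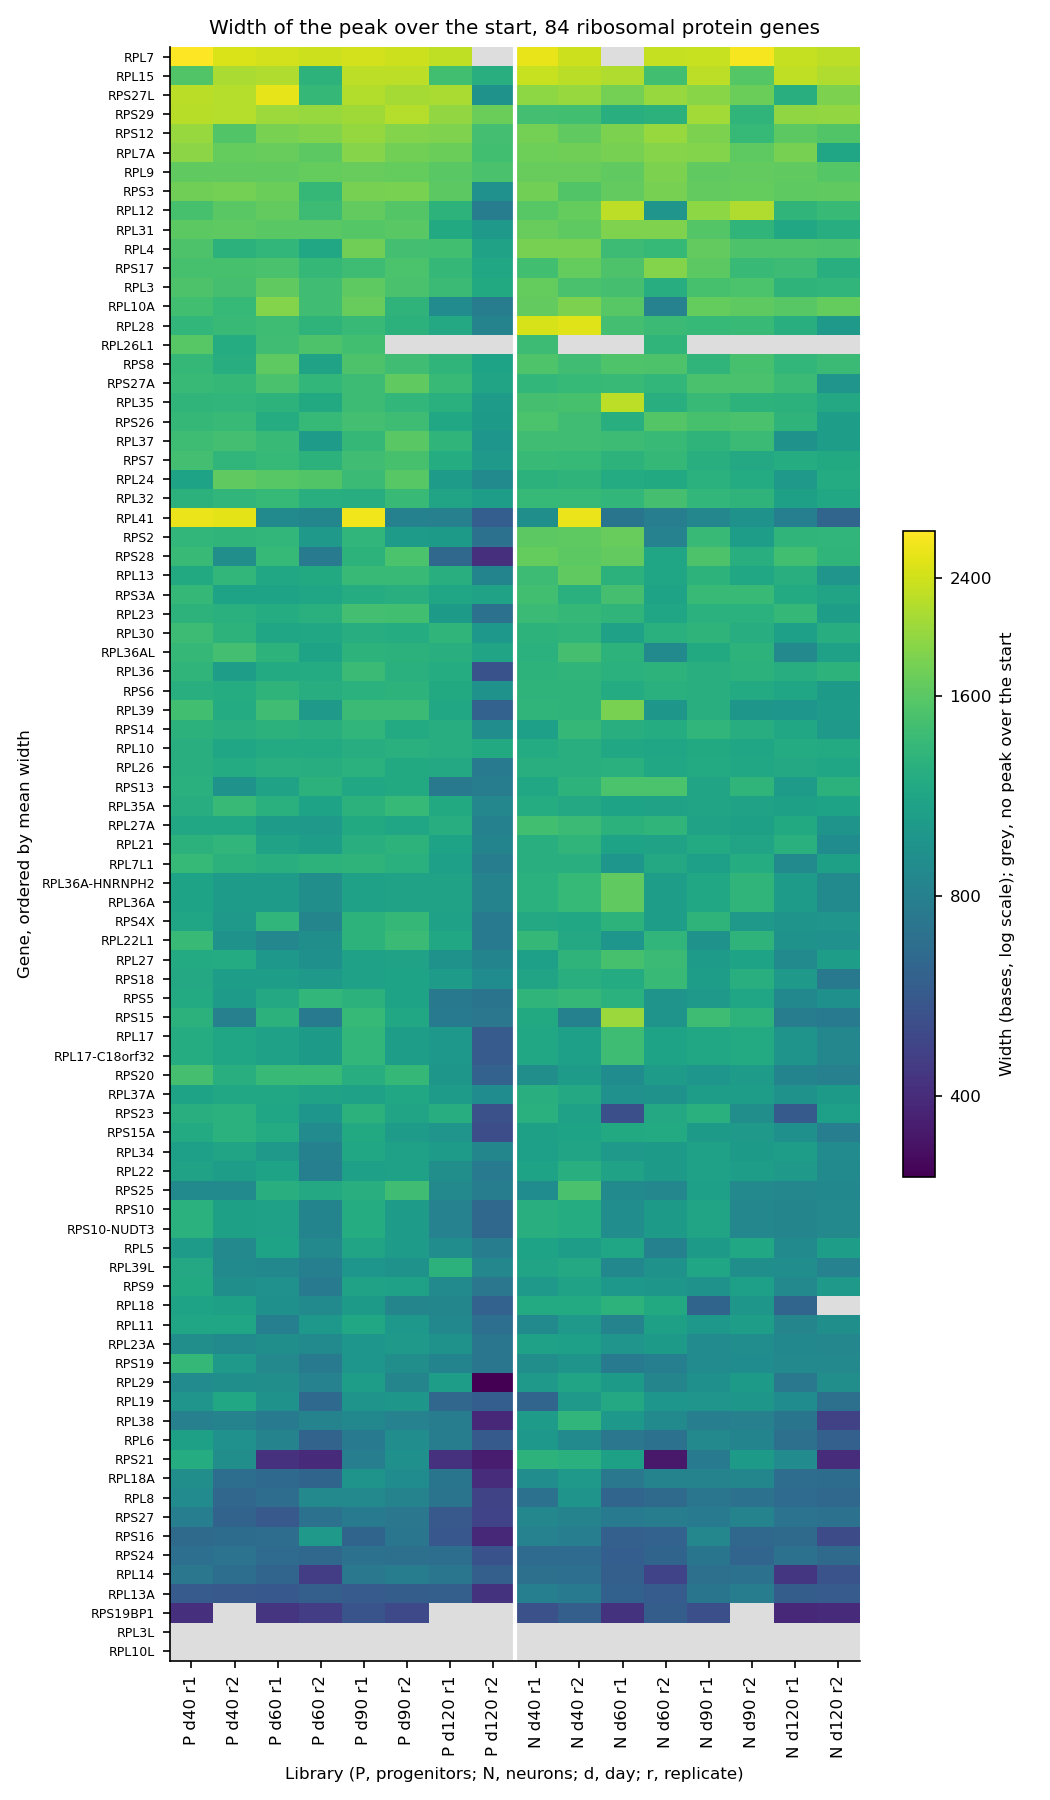
Width in bases (colour, log scale) of the peak over the start of 84 of the 85 genes (rows, ordered by mean width over the libraries with a peak) in each of 16 libraries (columns); grey cells have no peak over the start. RPL13A lies at the narrow end and RPL15 at the wide end, progenitor day 120 replicate 2 holds the narrowest peak of most genes, and RPL41 has 2568 to 2700 bases in 4 libraries and at most 948 in the other 12.

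The main comparison asked whether the loci differ in open chromatin between dividing progenitors and neurons. Locus coverage was log2 of the covered bases in the window plus 500, less log2 of the library's total, and was tested with limma over 18755 genes, adjusted by Benjamini-Hochberg. Of the 85 members, 2 were higher in progenitors (RPL7 and RPS21) and 2 lower (RPS28 and RPS19BP1). That is 4.71%, where 21.0% of all genes passed (9.9% higher and 11.1% lower). At an unadjusted p under 0.05 there were 13 members (15.3%) and 33.2% of all genes. The median difference was -0.03 over members and -0.05 over all genes, and member differences ran from -0.54 to 0.44. In this fit the members' share was below the background share in both directions, and their median lay near that of all genes.

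RPL7 (chr8:73290242-73294466) encodes a large subunit protein. Its window held 1.36, 5.76 and 6.82 kb of peaks (lowest, median and highest of 8 progenitor libraries) and 2.68, 3.59 and 4.401 kb in neurons. All progenitor libraries but day 120 replicate 2 lay above all neuron libraries. The log2 difference was 0.44 ± 0.13 (SE, adjusted p = 0.0141, limma). The unscaled kilobases gave a two-sided exact permutation p of 0.012, unadjusted and computed for each of the 85 members. The bases that differed lay in the neighbour RDH10, a retinol dehydrogenase gene that begins 136 bases away. There chr8:73306110-73307026, 11644 bases beyond RPL7, overlapped peaks of 7 progenitor libraries and 1 neuron library. Unless stated otherwise, such stretches, here and below, were picked for a difference of at least 6 libraries between the populations over at least 50 bases. Their library counts follow from that choice and are no separate test of the calls. With flanks of 5 or 1 kb the difference for RPL7 turned to -0.10 (adjusted p = 0.682) and -0.13 (adjusted p = 0.595).

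RPS21 (chr20:62387103-62388520), a small subunit protein gene, had 2.68, 4.63 and 5.997 kb in progenitors (lowest, median, highest) and 1.51, 3.11 and 6.28 kb in neurons. The populations overlapped widely. Its difference was 0.43 ± 0.14 (adjusted p = 0.0272, limma), and the exact permutation p of the unscaled kilobases was 0.125. Short stretches 9281 and 10449 bases from RPS21, between it and LAMA5, each overlapped peaks of 7 progenitor libraries and 1 neuron library. The call ended without any of 7 libraries in turn (adjusted p up to 0.0867), and with flanks of 5 or 1 kb the difference turned to -0.35 and -0.24.

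RPS19BP1 (chr22:39529093-39532748) had 1.48, 3.59 and 4.59 kb in progenitors and 3.45, 4.08 and 7.31 kb in neurons. Its difference was -0.41 ± 0.12 (adjusted p = 0.0152, limma; exact permutation p of the kilobases 0.0706). A stretch of 293 bases at chr22:39547199-39547491, 14451 bases from the gene and outside any protein-coding gene, overlapped peaks of 8 of 8 neuron libraries and 0 of 8 progenitor libraries. With a flank of 1 kb the difference was -0.11 (adjusted p = 0.733). The call also ended without neuron day 40 replicate 2 (-0.33, adjusted p = 0.062).

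RPS28 (chr19:8321496-8323340) differed near its own start. It encodes a small protein at the mRNA exit of the small subunit and is mutated in some families with Diamond-Blackfan anaemia, a failure of red cell formation. Its window held 1.45, 3.87 and 5.03 kb in progenitors and 3.105, 4.92 and 6.22 kb in neurons, with overlap. The difference was -0.40 ± 0.12 (adjusted p = 0.0172, limma; exact permutation p of the kilobases 0.0737). Of the 4 genes it alone kept its direction and size with flanks of 5 kb (-0.37, adjusted p = 0.116) and 1 kb (-0.44, adjusted p = 0.0548), although neither passed. It also missed the threshold without any of 5 libraries in turn (adjusted p up to 0.0687).

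The count of members moved with the processing, and so did the share of all genes that passed. With a flank of 5 kb 0 of 84 members passed, where 18.96% of all genes did, and with a flank of 1 kb 1 of 84, RPL28 (lower), where 18.78% did. Without scaling by the library total 0 members and 8.95% of all genes passed, and the share of higher calls among all genes' calls was 61.1%, against 47.0% with scaling. With lists cut to equal length 8 of 84 members were higher and 12 lower, of which 1 was among the 4 above, where 28.0% of all genes passed. With a pseudocount of 100 bases 7 members and 22.5% of all genes passed, and with 2000 bases 1 member and 11.05%.

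**Figure D3:**
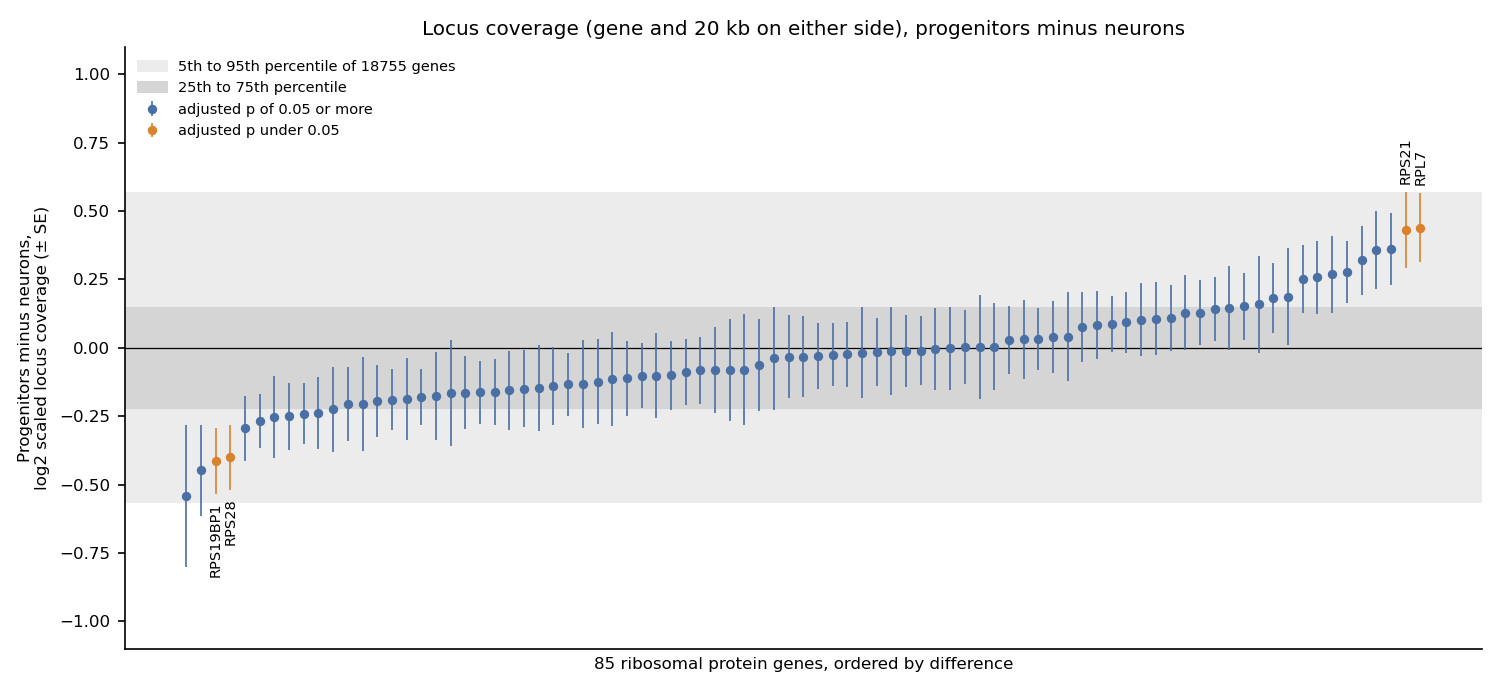
Difference in scaled log2 locus coverage, progenitors minus neurons, of the 85 genes in order (points; bars, SE of the fit over 16 libraries), with the central range of 18755 genes as grey bands; orange points passed the adjusted threshold. Members lie between -0.54 and 0.44, and RPS19BP1, RPS28, RPS21 and RPL7 are the 4 that passed.

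Taken day by day, with 2 libraries against 2 and the spread shared over all groups, calls were few and fell on different genes. At day 40, 4 members were higher in progenitors and 0 lower (4.71%), against 4.37% of all genes higher, 2.27% lower and 6.64% in either direction. At day 60, 0 were higher and 1 lower, where 6.04% of all genes passed (2.68% higher, 3.35% lower). At day 90 limma called 0 members, with 2 at an unadjusted p under 0.05, where 2.45% of all genes passed (1.1% higher, 1.35% lower). At day 120, 1 member was higher and 0 lower, where 6.87% of all genes passed (2.87% higher, 4.0% lower). The median of all genes moved with the day, 0.16 at day 40, -0.12 at day 60 and -0.13 at day 90, and without scaling to -0.18 and 0.16 at days 40 and 60. The members' medians were 0.26, -0.12 and -0.20 with scaling, so only differences from these medians bear on the genes.

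The 4 genes at day 40 were RPS15A, RPL7, RPL35A and RPS12. RPS15A, of the small subunit, had 4.03 and 3.98 kb in progenitors and 2.38 and 2.64 kb in neurons, a difference of 0.91 ± 0.28 (adjusted p = 0.0456, limma). Over all days its populations were level (3.07 ± 0.949 and 3.19 ± 1.03 kb, SD, n = 8 each). RPL7 had 6.82 and 5.49 kb against 4.401 and 3.52 kb (0.91 ± 0.25, adjusted p = 0.03). RPL35A, of the large subunit and another Diamond-Blackfan gene, had 3.89 and 3.84 kb against 2.65 and 2.36 kb (0.87 ± 0.27, adjusted p = 0.0473). RPS12, of the small subunit, had 5.94 and 4.88 kb against 3.93 and 3.34 kb (0.84 ± 0.25, adjusted p = 0.0418).

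In each of these windows some of the bases covered only in both day 40 progenitor libraries lay in other genes. For RPL35A, chr3:197937002-197937382, inside DRC9 and 12808 bases away, overlapped peaks of all 8 progenitor libraries and 1 neuron library. For RPS12, chr6:132797587-132797992, inside the transporter gene SLC18B1 and 16577 bases away, overlapped peaks of 7 progenitor libraries and 1 neuron library. In width averaged over the days, the start peaks of these 2 genes did not pass (0.12 ± 0.05, adjusted p = 0.202, and 0.12 ± 0.08, adjusted p = 0.42, limma). In width at day 40 alone, RPL28 was the only member that passed. Each of the 4 day 40 calls ended when any of the 4 day 40 libraries was left out (adjusted p up to 0.353). Over all 16 such omissions the call was lost in 12 for RPL35A, 10 for RPS15A, 8 for RPS12 and 4 for RPL7.

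RPL22L1 (chr3:170864875-170870195) was the call at day 60. Its window held 0.855 and 0.925 kb in progenitors and 2.21 and 2.19 kb in neurons, a difference of -1.24 ± 0.33 (adjusted p = 0.0269, limma). At day 90 the values were 1.29 and 1.39 kb against 1.88 and 2.31 kb, and at days 40 and 120 the populations overlapped (1.36 and 0.956 kb against 2.03 and 1.17 kb, then 1.88 and 1.05 kb against 1.30 and 1.09 kb). The added bases lay at chr3:170889331-170890108, inside EIF5A2 and 19136 bases away, and overlapped peaks of 6 neuron libraries, in part or in full, and in part that of 1 progenitor library. That stretch was picked for coverage in both day 60 neuron libraries. In all 4 day 60 and day 90 progenitor libraries the whole window held no peak but that over the RPL22L1 start. The call ended without progenitor day 60 replicate 1 or 2 or neuron day 60 replicate 2 (adjusted p up to 0.217).

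RPS21 was the call at day 120, with 5.34 and 2.68 kb in progenitors against 2.02 and 1.505 kb in neurons (1.02 ± 0.28, adjusted p = 0.0258, limma). It ended without progenitor day 120 replicate 2 or either neuron library of that day (adjusted p up to 0.171). Without progenitor day 120 replicate 2 the day 120 count was 5 members, all lower, where 8.02% of all genes passed.

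The width of the start peak, centred on each library's median, gave a comparison less exposed to neighbours. Of 79 members tested, RPS29 and RPS20 were wider in progenitors and RPS28 and RPL28 narrower, 4 in all (5.06%, against 7.59% of 9578 genes, 4.29% wider and 3.3% narrower). At an unadjusted p under 0.05 there were 13 members (16.5%), against 23.5% of all genes. The member median was -0.02 and that of all genes 0.00 on the log2 scale. Without centring 1 of the 4 passed, RPS29, where 3.48% of all genes passed.

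By day, start widths gave fewer calls. At day 40 limma called 1 member narrower in progenitors, RPL28, and 0.365% of all genes (0.188% wider, 0.177% narrower). At day 60 it called 0 members, with 9 at an unadjusted p under 0.05, and 1.02% of all genes (0.7% and 0.324%). At day 90 it called 0 members, with 1 unadjusted, and 0.198% of all genes (0.167% and 0.0313%). At day 120 it called 1 member narrower, RPS28, and 1.08% of all genes (0.397% and 0.679%).

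RPS28 started from a common core of 409 bases, chr19:8321153-8321561, covered in all 16 libraries. Its width was 414, 1096 and 1496 bases in progenitors (lowest, median, highest) and 1129, 1476 and 1667 in neurons. The difference was -0.56 ± 0.12 on the log2 scale (adjusted p = 0.0177, limma), and the exact permutation p of the widths was 0.0207 (two-sided, unadjusted). In day 40 replicate 2, day 60 replicate 2 and both day 120 libraries of progenitors the stretch ended 65 to 80 bases past the start, and in the other 4 progenitor libraries 513 to 634 bases past it. In neurons it ended 257 to 810 bases past the start.

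The stretch of RPS28 within the gene, chr19:8322121-8322202, overlapped peaks of 7 neuron libraries and 1 progenitor library. At day 120 the widths were 642 and 414 bases in progenitors and 1440 and 1310 in neurons, a difference of -1.23 ± 0.23 (adjusted p = 0.0322, limma). The day 120 call ended without any of 7 libraries in turn (adjusted p up to 0.131). The end of NDUFA7, a subunit of mitochondrial complex I, lies 121 bases before the RPS28 start, so the peak covers an end of both genes. Without progenitor day 90 replicate 1 the call over all days ended (-0.53, adjusted p = 0.0502).

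RPL28 (chr19:55385932-55403342), a large subunit protein gene, was set apart by its day 40 neurons. Its start peak was 2463 and 2540 bases wide there, and between 1001 and 1453 bases in the other 6 neuron libraries. Progenitors had 822, 1310 and 1409 bases (lowest, median, highest), with 1331 and 1378 at day 40. The difference was -0.26 ± 0.05 over the days (adjusted p = 0.0118, limma) and -0.82 ± 0.10 at day 40 (adjusted p = 0.00512). Without centring both calls ended (-0.30, adjusted p = 0.0727, and -0.89, adjusted p = 0.0904), and the day 40 call also ended without neuron day 40 replicate 2 (-0.82, adjusted p = 0.0539).

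In day 40 neurons the RPL28 stretch reached 1996 and 2014 bases before the start and joined the end of TMEM238, which lies 1640 bases away. In 6 of 8 progenitor libraries, and in neuron day 90 replicate 1, a separate short peak stood there in its place. The downstream edge was 404 to 525 bases past the start in all but 3 libraries and hardly moved between groups. Counted as covered bases within 1 kb of the start, RPL28 gave -0.07 (adjusted p = 0.384), and -0.09 at day 40 (adjusted p = 0.999).

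RPS29 (chr14:49570988-49598710), a small zinc-binding protein of the small subunit and a further Diamond-Blackfan gene, was wider in progenitors. It had 1707, 2054 and 2220 bases in progenitors and 1224, 1442 and 2069 in neurons (lowest, median, highest). Day 40 and day 60 neurons had 1444, 1441, 1224 and 1273 bases, all below every progenitor library, while neuron day 90 replicate 1 and both day 120 neuron libraries (2069, 1956 and 1970) reached the progenitor range. The difference was 0.43 ± 0.09 (adjusted p = 0.0183, limma; exact permutation p of the widths 0.00824, unadjusted).

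The edge of the RPS29 stretch that moved was the one before the start, 1507 to 1767 bases away in progenitors and 775 to 860 in 5 neuron libraries. That side holds LRR1, which begins 230 bases from RPS29. Covered bases within 1 kb of the start gave 0.06 (adjusted p = 0.467), and without progenitor day 90 replicate 2 the width gave 0.42 (adjusted p = 0.0534). RPS29 is among the members with no TOP-form run at the listed start.

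RPS20 (chr8:56067254-56074506), a small subunit protein gene with no other protein-coding gene in its window, was likewise wider in progenitors. Its peak measured 614, 1290 and 1460 bases in progenitors and 799, 947 and 1043 in neurons (lowest, median, highest). All 6 progenitor libraries of days 40 to 90 lay above all neuron libraries, and the day 120 progenitors (986 and 614) did not. The difference was 0.34 ± 0.07 (adjusted p = 0.014, limma; exact permutation p of the widths 0.0298, unadjusted). A stretch of 301 bases inside RPS20 (chr8:56073764-56074064) was covered in those 6 progenitor libraries and in 0 neuron libraries. The call held when each of the 16 libraries was left out in turn (adjusted p up to 0.0446) and ended without centring (0.31, adjusted p = 0.122). The start of RPS20 was taken as the gene end with peaks in more libraries.

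**Figure D4:**
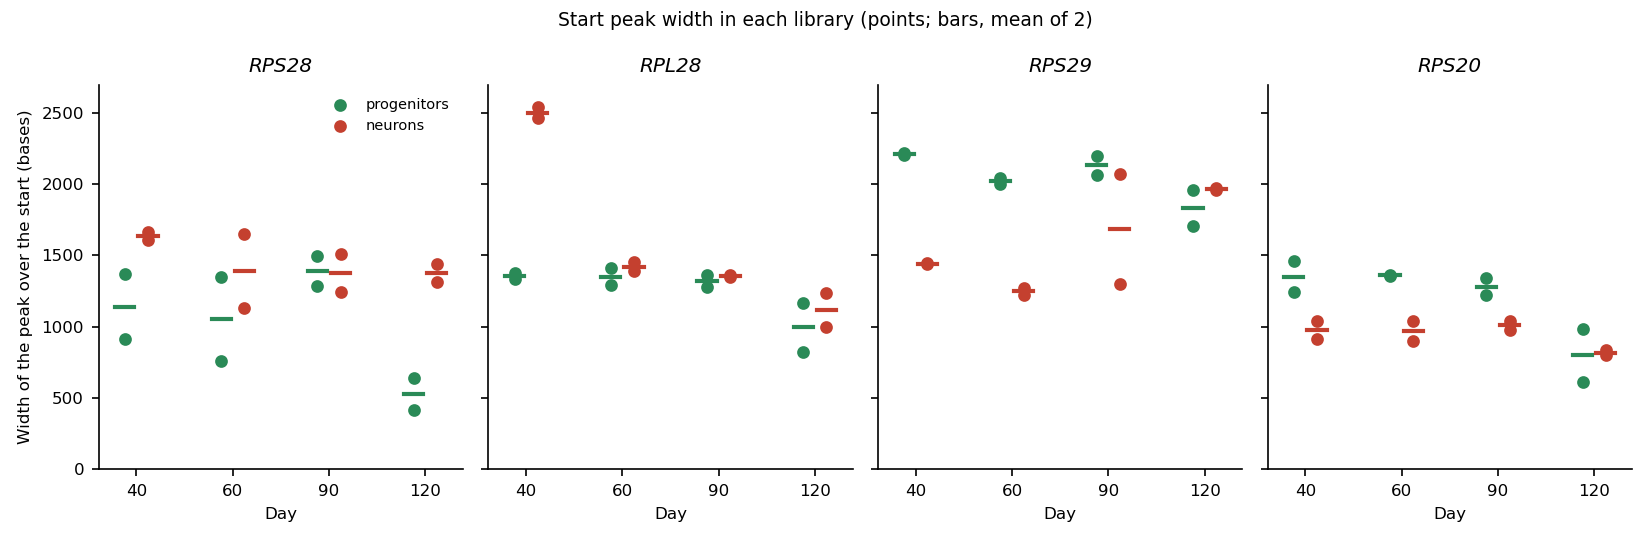
Width in bases of the peak over the start of RPS28, RPL28, RPS29 and RPS20 by day, each point a library (green, progenitors; red, neurons) and each bar the mean of 2. RPL28 is wide in the 2 day 40 neuron libraries, at 2463 and 2540 bases, RPS28 is narrow in day 120 progenitors, at 642 and 414, and RPS20 is wider in progenitors up to day 90.

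**Figure D5:**
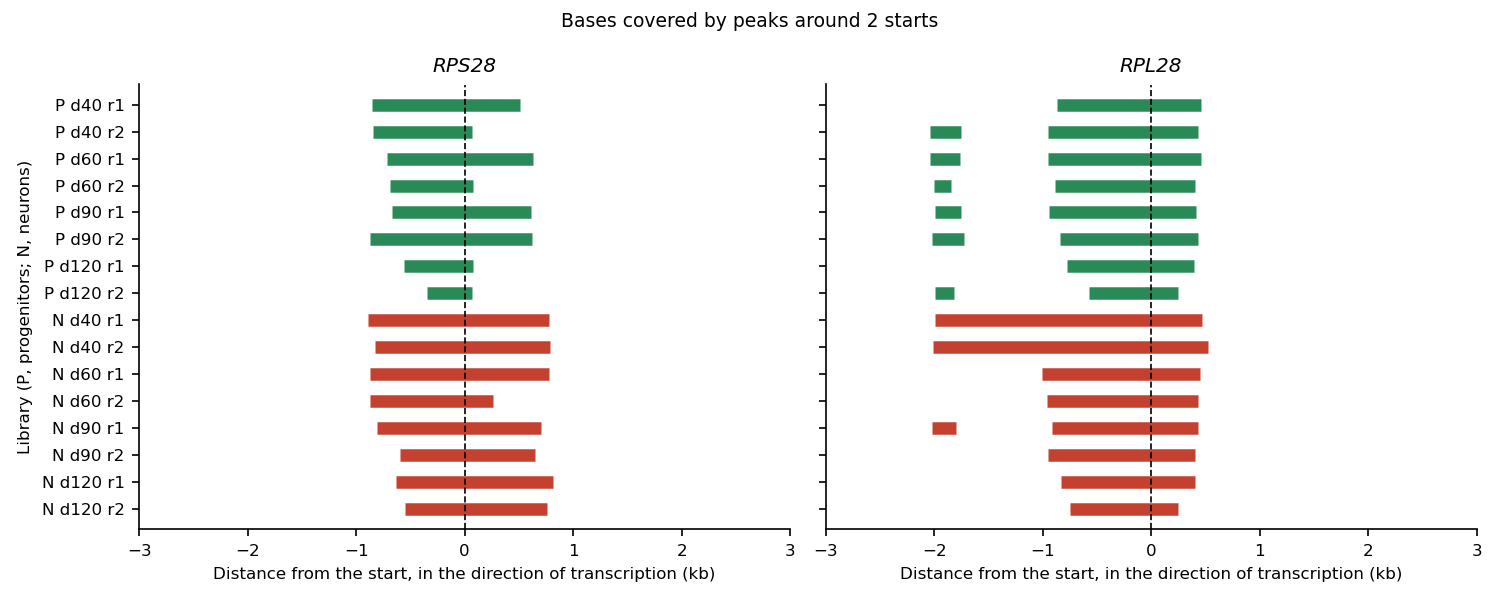
Bases covered by peaks within 3 kb of the RPS28 and RPL28 starts (distance in kb, in the direction of transcription; dashed line, the start) in each of 16 libraries (green, progenitors; red, neurons). RPS28 stretches end 65 to 80 bases past the start in 4 progenitor libraries, and RPL28 stretches reach back by 1996 and 2014 bases in the 2 day 40 neuron libraries.

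Between early (days 40 and 60) and late (days 90 and 120) samples the loci changed little. In locus coverage, limma called 0 members in progenitors, with 4 at an unadjusted p under 0.05, and 2.91% of all genes (1.44% higher late, 1.46% lower). In neurons it called 0 members, with 1 unadjusted, and 5.67% of all genes (3.3% higher, 2.37% lower). For the difference between the populations' changes it called 0 members, with 4 unadjusted, and 0.629% of all genes (0.261% and 0.368%). The most negative change in progenitors was that of RPL31, of the large subunit (-0.63, adjusted p = 0.107). In start width, limma called 0 members in progenitors, with 5 unadjusted, and 0.23% of all genes (0.146% wider late, 0.0835% narrower). In neurons RPL28 alone passed, narrower by 0.50 ± 0.07 on the log2 scale (adjusted p = 0.0155, limma), where 0.355% of all genes passed (0.177% wider, 0.177% narrower). That call ended without neuron day 40 replicate 1 or 2, day 90 replicate 1 or day 120 replicate 2 (adjusted p = 0.059, 0.0752, 0.0542 and 0.0561), and without centring (adjusted p = 0.0743). The test of the difference between its changes in the 2 populations gave 0.39 ± 0.10 (adjusted p = 0.257). That test called 0 members, with 6 unadjusted, and 0.104% of all genes (0.0626% and 0.0418%). In locus coverage the absence of calls in progenitors depended on progenitor day 120 replicate 2. Without it RPL31 and RPS15A were lower late in progenitors, in a fit with 1 library left for that population and day.

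The following values are for progenitors minus neurons averaged over the days, and calls on single days are left out. By subunit, 1 small subunit gene was higher (RPS21) and 1 lower (RPS28) of 30 in locus coverage, and 1 large subunit gene was higher (RPL7) of 43. The medians were -0.01 and -0.08. Of 18 members linked to Diamond-Blackfan anaemia, RPS28 alone passed in locus coverage, and in start width RPS29 was wider and RPS28 narrower of 17 tested. Beside these counts by subunit and disease, 21.0% of all genes passed in locus coverage and 7.59% in start width. RPL5 and RPL11, the MDM2-binding pair, gave -0.22 ± 0.16 (adjusted p = 0.337, limma) and -0.08 ± 0.20 (adjusted p = 0.828). Among the 8 paralogs the lowest adjusted p in locus coverage averaged over the days was that of RPL22L1 (-0.45 ± 0.17, adjusted p = 0.0561, limma).

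Genes that act with the ribosomal proteins were read from lists of known function. Of the ribosomal proteins with other symbols, RPLP0, RPLP1, RPLP2, RPSA, FAU and RACK1 did not pass by limma (lowest adjusted p = 0.283, FAU; 0 at an unadjusted p under 0.05), and each had a gene end peak in all 16 libraries. Of 15 translation genes with TOP mRNAs, 2 were lower in progenitors, EIF3H (-0.37 ± 0.11, adjusted p = 0.0174) and EIF4B (-0.31 ± 0.11, adjusted p = 0.0474), where 11.1% of all genes were lower. On single days, locus coverage of NAP1L1 was higher in progenitors at day 40 (0.85 ± 0.20, adjusted p = 0.0114, limma), where 4.37% of all genes were higher. That of EEF1D was lower at day 120 (-0.64 ± 0.20, adjusted p = 0.0478, limma), where 4.0% of all genes were lower.

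Of 30 ribosome biogenesis genes 3 were higher in progenitors and 0 lower, where 9.9% and 11.1% of all genes were. The share of higher calls was thus near that of all genes. The 3 were NMD3 (0.79 ± 0.14, adjusted p = 0.000243, limma), which exports the large subunit from the nucleus, RIOK2 (0.57 ± 0.14, adjusted p = 0.00348), a kinase of small subunit maturation, and POLR1A (0.55 ± 0.14, adjusted p = 0.00741), the largest subunit of RNA polymerase I. EIF6, which keeps the large subunit from joining too early, had lower locus coverage in progenitors at day 120 (-0.83 ± 0.25, adjusted p = 0.0467, limma), where 4.0% of all genes were lower. Its locus coverage was also lower in late than in early progenitors (-0.76 ± 0.18, adjusted p = 0.0205, limma), where 1.46% of all genes were lower. Among 10 genes that control translation of ribosomal protein mRNAs, RPTOR, a subunit of mTOR complex 1, was lower in progenitors (-0.35 ± 0.10, adjusted p = 0.0122). Locus coverage of MTOR was higher in late than in early neurons (0.88 ± 0.15, adjusted p = 0.000795, limma), where 3.3% of all genes were higher. LARP1 had a gene end peak in 15 libraries. In start width, 0 genes of these lists that act with the ribosomal proteins passed in any contrast.

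In locus coverage averaged over the days, the 77 mitochondrial ribosomal protein genes gave 1 call higher (MRPS28) and 7 lower. Of the 85 cytosolic genes 2 were higher and 2 lower, and of all genes 9.9% were higher and 11.1% lower. MRPL23 had the largest difference (-1.11 ± 0.26, adjusted p = 0.003, limma) and MRPS28 gave 0.47 ± 0.10 (adjusted p = 0.0009). The median was -0.08, and 73 of the 77 had a gene end peak in all 16 libraries. In start width, 1 of 70 tested was wider in progenitors (MRPS18A) and 1 narrower (MRPS7), where 7.59% of all genes passed. The difference between the 2 ribosomal sets was not tested.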

How the data were processed

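ATAC-seq peaks of 16 libraries were used as deposited. MACS2 2.1.2, SAMtools 1.9, Picard, BWA 0.7.17 and Trim Galore 0.5.0 are named in the submitters' processing notes, as is hg38. No source used here says how reads were shifted for the transposase. Each deposited list holds an integer score per peak, the authors' fold enrichment as a ratio, and −log10 p-values and q-values. These are the peaks' own values and served only to rank or filter within a list. No file gives reads, so depth is unknown and no counting interval applies. Lists called separately move with how much was called.

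Peaks on chromosomes 1 to 22 and X were merged per library, which left out 95 to 387 peaks. Genes entered the locus test with 500 covered bases or more in 2 or more libraries. The model, limma 3.58.1 (R 4.3.3), had 8 group means and a trended prior. Start width used the widest stretch over any listed start. For the 19 members with no entry used from the promoter table the gene end with peaks in more libraries was taken. Benjamini-Hochberg values cover all genes tested, with a threshold of 0.05. The fit was checked on simulated data.

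Members were named where they passed a test, lacked a gene end peak in a library, belong to the paralog list or had the widest or narrowest start peak. RPL10, RPL14, RPS24, RPL41, RPL5 and RPL31 were named after their values were seen. The members and lists were chosen with earlier results of these data known. Results of some genes are not reported here. Alternatives are given in the closing section. The use of table starts only was added after the data were seen.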

Additional observations from a re-analysis of the deposited data

Results flagged for a closer look

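A sample far from the others of its group was found in 3 of 10 checks of the members' summary values, all of them in progenitor day 120 replicate 2, the library with the fewest covered bases. Chance alone flags about 1 in 20 such groups. The median start width of the members was 778 bases there, and the next lowest of the 8 progenitor libraries had 1034. The median locus coverage of the members was 1.74 kb against 3.03 kb in the next lowest library. Their summed locus coverage was 156 kb against 266 kb. The same library had the lowest median width over all genes, 901 bases.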

How the results depend on the processing

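Counts of members called, given as higher plus lower, depended on the processing. For locus coverage between the populations (4), flanks of 5 and 1 kb gave 0 and 1, pseudocounts of 100 and 2000 bases 7 and 1, no scaling 0 and lists of equal length 20. The share of all genes that passed went from 21.0% to 18.96%, 18.78%, 22.5%, 11.05%, 8.95% and 28.0% in that order. At day 40 (4) the flanks gave 0 and 0, the pseudocounts 1 and 1, no scaling 0 and a −log10 q of at least 3 gave 0, with all genes at 6.37%, 6.25%, 5.67%, 3.84%, 0.944% and 4.37%. At day 60 (1) the flanks, a pseudocount of 2000 bases and no scaling gave 0 (all genes 5.55%, 5.801%, 2.95% and 0.682%) and equal lists 5 (9.62%). At day 90 (0) equal lists gave 3 (8.72%). At day 120 (1) the flanks, 2000 bases and no scaling gave 0 (5.63%, 5.39%, 1.81% and 0.672%), and 100 bases and equal lists 3 each (9.62% and 8.18%). Equal lists gave 1 for late against early progenitors (6.03%) and 3 for neurons (6.66%). For start width (4), no centring gave 1 (3.48%) and covered bases near the start 2 (6.21%), and for late against early neurons (1) both gave 0 (0.0626% and 0.23%). Starts from the promoter table only, an alternative chosen after seeing the data, gave 3 for width between the populations (7.71%). Gene end peaks gave 0 throughout, also where 44 members could be tested with at least 50% of the window covered.

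Leaving out 1 library gave 2 to 10 for locus coverage between the populations, 0 to 6 at day 40, 0 to 1 at day 60, 0 at day 90, 0 to 5 at day 120, 0 to 2 for late against early progenitors, 0 to 1 for neurons and 0 to 1 for the difference of these. For start width it gave 3 to 10, 0 to 1 and 0 to 2. The count of 10 in locus coverage (8 higher, 2 lower) came without progenitor day 120 replicate 1 (all genes 23.9%), and 9 (2 higher, 7 lower) without replicate 2 (28.9%). The count of 2 came without progenitor day 40 replicate 2 or day 60 replicate 1. The count of 10 in width (2 wider, 8 narrower) came without neuron day 60 replicate 2 (9.61%).

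Signs turned for RPL7 with flanks of 5 kb (-0.10) and 1 kb (-0.13) and for RPS21 with both flanks (-0.35 and -0.24), with equal lists (-0.051) and, at day 120, with both flanks (-0.44 and -0.25). The causes were not tested.

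Replicate numbers are shared between populations. Deviations of same-numbered libraries correlated at -0.12, 0.21, 0.06 and 0.16 by day over 18755 genes. With 2 libraries per group, these values cannot decide whether same-numbered libraries were paired. With the replicate block the counts stayed at 4 for locus coverage, 4, 1, 0 and 1 by day and 4 for width.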

Other observations

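The table of genes also lists 1858 ribosomal protein pseudogenes, most of which are intronless copies of the mRNAs. Between 5.06% (progenitor day 120 replicate 2) and 11.1% (neuron day 40 replicate 1) of them had a peak within 1 kb of an end, against 97.6% of the 85 genes. All 16458 pseudogenes of the table gave 7.13% to 13.3%. Of the ribosomal protein pseudogenes 30 (1.61%) had such a peak in all 16 libraries, against 3.32% of all pseudogenes, and 1313 (70.7%) in none. Reads of a copy and of its parent gene can be hard to place, and how such reads were treated is not given in the sources used here.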
